A study of Mus musculus with 30 samples.

Results

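The matrix metalloproteinases (Mmp genes), the ADAMTS proteases with their ADAMTS-like relatives (Adamts and Adamtsl genes) and the tissue inhibitors of metalloproteinases (Timp genes) were followed in infarcted mouse hearts. All protein-coding genes whose symbol is one of these names followed by a digit were taken, which gave 50 of the 43629 genes counted: 22 Mmp, 19 Adamts, 5 Adamtsl and 4 Timp genes. The hearts came from wild type mice of the strain C57BL/6J that were anaesthetised with isoflurane, opened at the thorax and freed of the pericardium. In the MI groups a coronary artery was then ligated, and in the sham groups it was not. RNA of the hearts was sequenced 2, 4 or 7 days later, with 5 libraries for each operation at each day, 30 in all. The sources used here give neither the age of the mice nor the part of the heart taken. The labels do not say that the libraries of a group came from separate animals, so that p-values reflect the spread between libraries, which may be technical.

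Metalloproteinases of these families are secreted or membrane-bound zinc enzymes that cut collagens, elastin, proteoglycans and other proteins of the extracellular matrix. Most MMPs are made as inactive precursors that furin-like convertases, plasmin or other MMPs cut into the active form, and TIMP proteins then block the active site. In the infarcted heart these enzymes are known for the breakdown of matrix around dead muscle, for the movement of leukocytes into the tissue and for the processing of the collagen that forms the scar. ADAMTS-like proteins share the accessory domains of the ADAMTS proteases but lack the catalytic domain.

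The 30 libraries held 7841930 to 14070017 counts and 18668 to 20905 genes with a count, and 3 counts, the limit that a count of 0 allows, came to 0.213 to 0.383 CPM (the count of a gene scaled to the total of its library). The 5 markers of cardiomyocytes (Myh6, Tnnt2, Ryr2, Actc1 and Myl2), which define the labelled tissue, were present in every library, with summed levels of 35339.9 to 42706 CPM in sham and 29165 to 34568 CPM in MI libraries at day 2. Of 5 endothelial markers 0 were higher and 2 lower in MI at each day (edgeR, adjusted p under 0.05). Their median log2 values were -0.20, 0.13 and 0.11 at days 2, 4 and 7. Of 5 pericyte and smooth muscle markers 0 were higher and 3 lower at day 2. These numbers were 0 and 2 at day 4, and 2 and 1 at day 7, with medians of -0.52, -0.56 and -0.15. Of all genes tested, 24.1% were higher and 22.2% lower at day 2. At day 4 these shares were 27.5% and 25.2%, and at day 7 28.4% and 26.6%. With only 5 genes in each list, no conclusion is drawn from these counts. Sftpc and Scgb1a1, genes of lung epithelium, summed to at least 50 CPM in 6 libraries: sham day 4 replicates 2 and 3, sham day 7 replicates 1, 2 and 3, and MI day 7 replicate 2. MI day 7 replicates 3, 4 and 5 held lower amounts (10.7 to 24.0 CPM) and are not among these 6, and the other 21 libraries read at most 1.22 CPM. Genes of fast skeletal muscle were high in MI day 7 replicate 4. Results at days 4 and 7 are therefore also given without these libraries where a call or its size changed. The day 2 libraries, MI and sham alike, carry another run name in their descriptions than those of days 4 and 7, so that day and run name cannot be told apart where day 2 is compared with a later day. In RNA from whole tissue, fewer cells of a type and less RNA per cell cannot be told apart.

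Of the 50 members, 38 were abundant enough to be tested at each day, 37 of them at all 3 days and 39 at 1 day or more. A gene could enter a test through 1 group alone, as Adamts16 did at day 7 and Mmp8 at days 2 and 4 through MI. The counts below include them, and the same filter held for all genes. The number of members higher in MI was larger at each later day. At day 2, 13 members were higher and 7 lower in MI than in sham hearts, where 24.1% of all genes tested were higher and 22.2% lower (edgeR, adjusted p under 0.05). At day 4, 20 were higher and 4 lower, against 27.5% and 25.2% of all genes. At day 7, 27 were higher and 2 lower, against 28.4% and 26.6%. The median log2 fold change of the members tested was -0.09, 0.54 and 1.12 at days 2, 4 and 7, and that of all genes tested -0.01, 0.01 and 0.01. The 5 MI libraries lay above the 5 sham libraries in 9, 16 and 23 members at the 3 days, and below them in 3, 2 and 1. Over all genes these shares were 20.3% and 10.3% at day 2, 28.2% and 11.1% at day 4, and 29.3% and 12.2% at day 7.

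**Figure D1:**
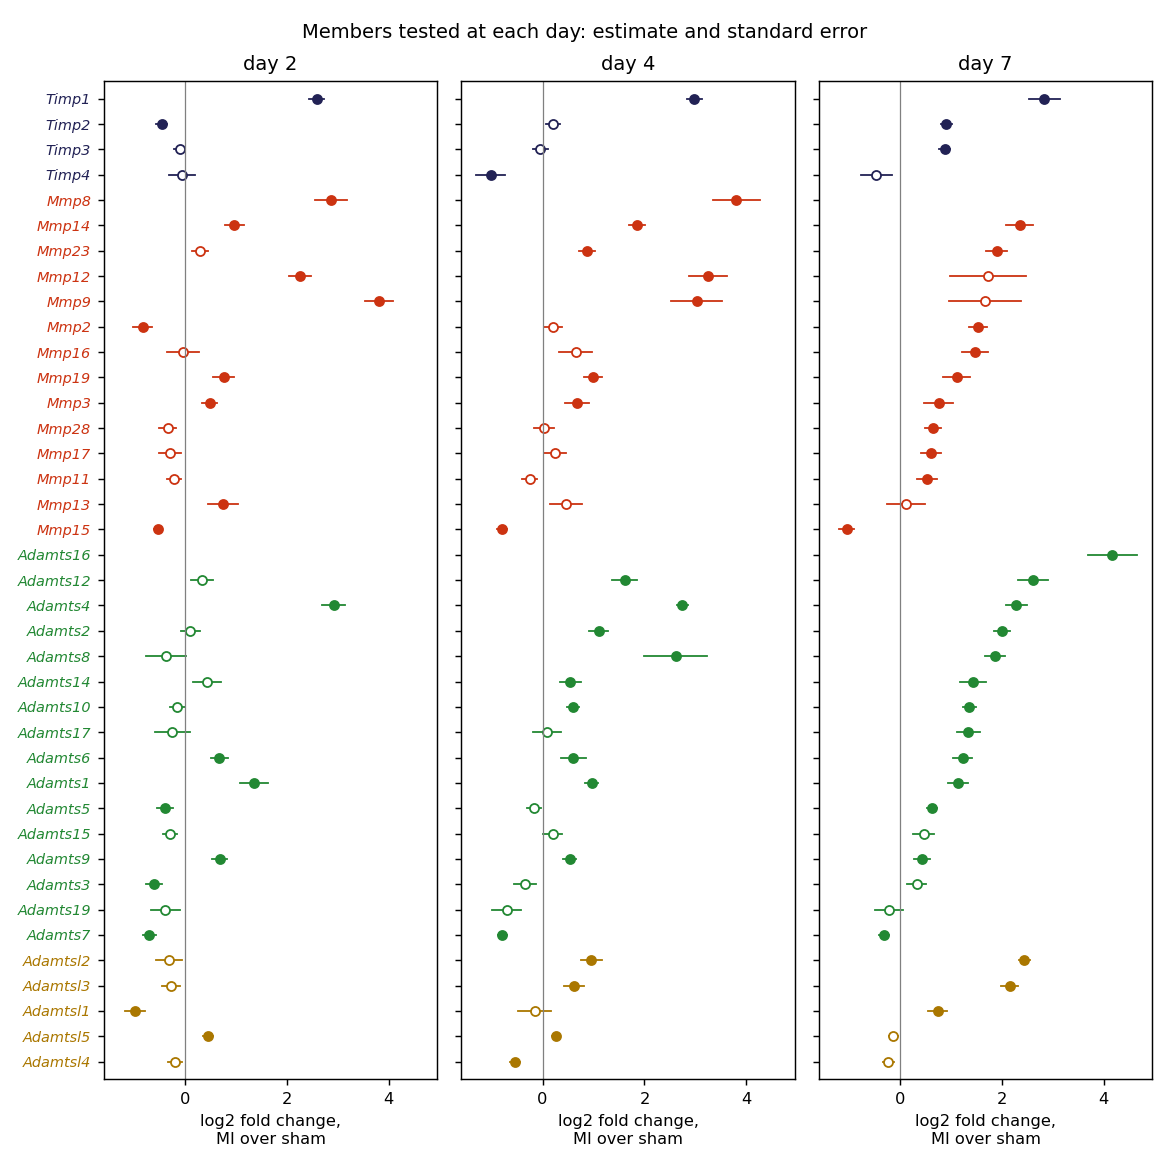
Log2 fold change of MI over sham (horizontal axis) of each member tested, by day, with its standard error; filled points passed an adjusted p of 0.05 in edgeR and open points did not. The number of filled points to the right of 0 goes from 13 at day 2 to 20 at day 4 and 27 at day 7.

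Of the Mmp genes tested, 7 were higher and 2 lower of 14 at day 2, 7 and 1 of 14 at day 4, and 9 and 1 of 13 at day 7. Of the Adamts genes, 4 were higher and 3 lower of 15 at day 2, 9 and 1 of 15 at day 4, and 12 and 1 of 16 at day 7. Of the 5 Adamtsl genes, 1 was higher and 1 lower at day 2, 3 higher and 1 lower at day 4, and 3 higher at day 7. Of the 4 Timp genes, 1 was higher and 1 lower at days 2 and 4, and 3 were higher at day 7. Among the 37 members tested at all days, Timp1, Mmp3, Mmp14, Mmp19, Adamts1, Adamts4, Adamts6 and Adamts9 were higher at each day. Mmp15 and Adamts7 were lower at each day, and Mmp2, Timp2, Adamts5 and Adamtsl1 were lower at day 2 and higher at day 7. The share of all genes with such calls over several days was not computed.

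Timp1 is an inhibitor of most secreted MMPs, and its transcript is known to rise with injury and inflammation. It lies at chrX:20870166-20874735 (GRCm38, as all positions here), inside an intron of Syn1 on the opposite strand. At day 2 it read 27.6, 35.0, 27.7, 20.9 and 22.4 CPM in sham replicates 1 to 5 and 222, 203, 144, 145 and 142 CPM in MI replicates 1 to 5. Every MI library stood far above every sham library, with replicates 1 and 2 the highest. The means were 171 ± 38.4 and 26.7 ± 5.55 CPM (SD, n = 5 libraries, here and for all means of CPM), a 5.99-fold difference in the fit (edgeR adjusted p = 4.58e-08). At day 4 Timp1 was 7.88-fold higher in MI (154 to 209 against 14.1 to 23.9 CPM, adjusted p = 6.42e-09). At day 7 it read 9.25, 23.9, 9.46, 7.03 and 11.6 CPM in sham and 137, 91.3, 108, 94.6 and 64.5 CPM in MI replicates 1 to 5, 7.13-fold higher (adjusted p = 1.48e-05). The groups did not overlap, although sham replicate 2, a library with lung transcripts, held more than the other 4 sham libraries. The MI mean was lower at day 7 than at days 2 and 4, and so was the sham mean, and the log2 fold changes were 2.58 ± 0.15, 2.98 ± 0.14 and 2.83 ± 0.30 (estimate ± standard error). Their differences were not past the threshold of the interaction test (adjusted p = 0.486 for day 4 against day 2 and 0.908 for day 7 against day 4).

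Timp2 takes part in the activation of pro-MMP2 at the cell surface as well as inhibiting MMPs, and it lies at chr11:118301069-118355740. At day 2 it was 1.38-fold lower in MI (edgeR adjusted p = 0.00321), at 147, 167, 129, 116 and 140.1 CPM against 207, 216, 153, 176 and 149 CPM in sham replicates 1 to 5. The groups overlapped at day 2. At day 4 the means were 303 ± 48.4 and 232 ± 57.2 CPM and the difference was not past the threshold (log2 0.21, adjusted p = 0.207). The threshold was passed without sham replicate 3, which held lung transcripts (log2 0.34, adjusted p = 0.0228). At day 7 Timp2 read 443, 486, 484, 551 and 405 CPM in MI and 232, 277, 212, 201 and 184 CPM in sham libraries, 1.88-fold higher with no overlap (adjusted p = 2.52e-05).

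Timp3, the TIMP that binds to the matrix and also inhibits ADAMTS proteases, lies at chr10:86300372-86349506, inside Syn3. It did not pass the threshold at day 2 (log2 -0.11, edgeR adjusted p = 0.416) or day 4 (-0.04, adjusted p = 0.835). At day 7 Timp3 read 315, 314, 346, 361 and 256 CPM in MI against 160.3, 167, 143, 167 and 122 CPM in sham replicates 1 to 5, 1.84-fold higher (adjusted p = 3.08e-05). The lowest MI library at day 7 stood well above the highest sham library. Timp4, an inhibitor known for its expression in heart muscle, lies at chr6:115241892-115252205, inside Syn2. It was 2.03-fold lower in MI at day 4 (adjusted p = 0.00812), at 7.04, 9.97, 5.55, 9.61 and 7.72 CPM against 9.0, 19.5, 11.8, 21.7 and 9.10 CPM. The upper MI libraries reached into the sham range. At day 2 it read 26.0 ± 9.59 and 25.8 ± 7.35 CPM, and at day 7 12.4 ± 6.61 and 15 ± 2.44 CPM, neither past the threshold (adjusted p = 0.854 and 0.222). Without MI day 7 replicate 1 the day 7 difference passed it (log2 -0.75, adjusted p = 0.0359).

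**Figure D2:**
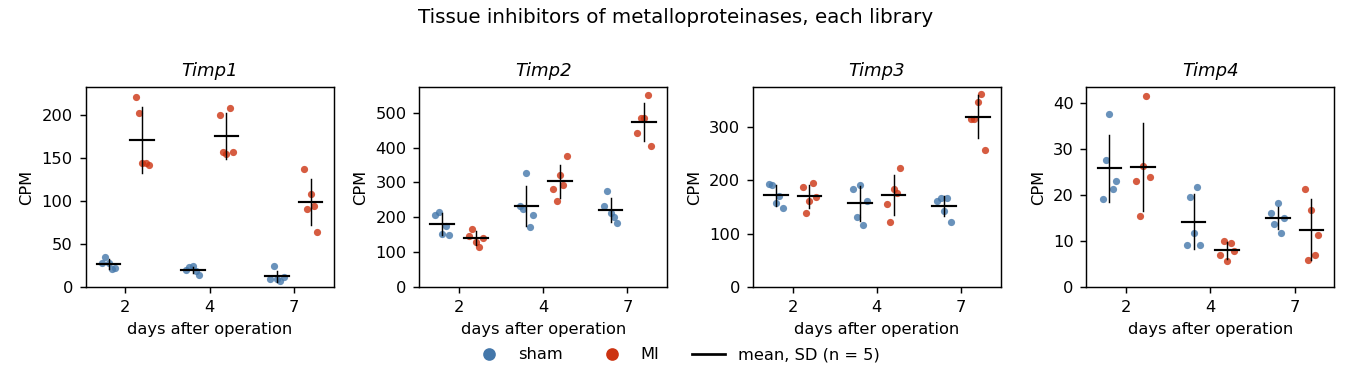
CPM (vertical axis) of the 4 Timp genes in each library, by days after the operation (horizontal axis), with sham in blue and MI in red; black bars are the mean and SD of 5 libraries. Timp1 separates the groups at every day, Timp2 and Timp3 only at day 7, and Timp4 at no day.

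Mmp2 and Mmp9 encode the gelatinases, which cut denatured collagen and basement membrane. In MI hearts Mmp2 was highest at day 7 and Mmp9 at day 2. Mmp2 (chr8:92827291-92853420) is known as a product of fibroblasts. At day 2 it read 47.3, 48.4, 43.9, 50.8 and 44.8 CPM in MI and 110.2, 102, 56.1, 78.2 and 47.2 CPM in sham replicates 1 to 5. The MI libraries were close together at the low end of the sham range, 1.78-fold lower in the fit (edgeR adjusted p = 0.00343). At day 4 the difference was not past the threshold (127 ± 34.8 against 97.8 ± 22.9 CPM, adjusted p = 0.367). At day 7 Mmp2 read 191, 327, 316, 370.2 and 250.2 CPM in MI and 88.3, 121, 80.7, 86.9 and 63.4 CPM in sham libraries, 2.89-fold higher with no overlap (adjusted p = 1.59e-05). All 5 fibroblast markers (Pdgfra, Tcf21, Dpt, Dcn and Col1a1) were higher in MI at day 7, with summed levels of 3573 to 7214 CPM against 1137 to 1905 CPM. At day 2 none was higher and 2 were lower (935 to 1311 against 957 to 1748 CPM). At day 4, where Mmp2 was not past the threshold, 2 were higher and 1 lower (2536 to 4555 against 1288 to 2387 CPM). The log2 values of the list were uneven, at -0.49 to 1.65 (median 0.07) at day 4 and 0.42 to 2.71 (median 0.71) at day 7. Col1a1 was the highest at both days. The day 7 call of Dcn (log2 0.42) was lost without the libraries with lung transcripts (log2 0.56, adjusted p = 0.0654) and without those with lung or skeletal muscle transcripts (0.45, adjusted p = 0.147). No marker of this list was at 0 in every library of a group, and its part in the Mmp2 values was not tested.

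Mmp9 (chr2:164940780-164955850), stored by neutrophils and also made by macrophages, read 99.2, 39.3, 54.4, 50.7 and 53.7 CPM in MI and 2.49, 4.26, 2.90, 5.41 and 4.50 CPM in sham replicates 1 to 5 at that day, 14.1-fold higher (edgeR adjusted p = 8.00e-07). No MI library came near the sham range, and replicate 1 stood above the other 4. At day 4 Mmp9 was 8.13-fold higher (10.5 to 50.6 against 1.27 to 6.12 CPM, adjusted p = 6.70e-04), a log2 fold change of 3.02 that became 3.71 without the libraries with lung transcripts. At day 7 it read 11.8, 4.88, 33.3, 4.54 and 4.42 CPM in MI and 3.39, 7.51, 2.75, 1.26 and 1.40 CPM in sham libraries and did not pass the threshold (log2 1.67 ± 0.70, adjusted p = 0.0683). MI replicate 3 stood far above the other 4 MI libraries. The threshold was passed without MI replicate 4 (adjusted p = 0.0393) or sham replicate 2 (adjusted p = 0.0337), and the estimate was 3.40 without the libraries with lung or skeletal muscle transcripts (adjusted p = 0.0171). It was also passed with DESeq2 (adjusted p = 0.0391) and with all 30 libraries in 1 edgeR fit (adjusted p = 0.0169). Neutrophil markers (S100a8, S100a9, Cxcr2, Csf3r and Retnlg) were higher in MI in 5 of 5 tested at day 2, 4 of 4 at day 4 and 3 of 3 at day 7. Their summed levels were 175 to 643 against 8.62 to 16.5 CPM at day 2, 31.9 to 217 against 4.66 to 11 CPM at day 4 and 16.4 to 256 against 1.91 to 8.63 CPM at day 7, with none at 0 throughout a group. Their part in the Mmp9 and Mmp8 values was not tested.

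Mmp8 and Mmp13 encode collagenases, which cut fibrillar collagen across its triple helix. Mmp8 (chr9:7558456-7568485), a granule protein of neutrophils, was nearly absent from sham hearts (0.264 to 1.45 CPM at day 2, 0 to 0.704 CPM at day 4). In MI replicates 1 to 5 it read 5.66, 4.44, 4.67, 5.12 and 4.0 CPM at day 2, 7.28-fold higher (edgeR adjusted p = 6.50e-06), and 5.31, 3.48, 3.01, 6.27 and 3.29 CPM at day 4, 13.9-fold higher (adjusted p = 9.29e-06). The groups did not overlap at either day. The log2 fold changes of 2.86 and 3.80 rest on few sham counts and became 3.51 without sham day 2 replicate 2 and 4.67 without sham day 4 replicate 4. At day 7 Mmp8 was too low to be tested, at 1.36, 1.04, 1.73, 0.589 and 0.108 CPM in MI and at most 0.448 CPM in sham libraries. Mmp13 read at most 3.16 CPM in any library and passed the threshold at day 2 (log2 0.75, adjusted p = 0.0484), a call that was lost without any one of 9 of the 10 libraries (all but sham replicate 5; log2 0.58 to 0.80, adjusted p = 0.0555 to 0.114). It was also lost with DESeq2, with all 30 libraries in 1 fit and with no filter on low counts (adjusted p = 0.0878, 0.103 and 0.0955).

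Mmp12, the macrophage elastase, lies at chr9:7344381-7369499. Sham levels were 0.799 to 1.47 CPM (day 2) and 1.11 to 4.24 CPM (day 4). In MI replicates 1 to 5 it read 6.17, 9.43, 7.32, 5.05 and 5.12 CPM at day 2, 4.77-fold higher (edgeR adjusted p = 1.92e-06), and 24.4, 37.2, 14.3, 15.8 and 31.0 CPM at day 4, 9.48-fold higher (adjusted p = 2.68e-05; log2 3.24, and 3.91 without the libraries with lung transcripts). Every MI library lay above every sham library at both days, and the 3 highest of all 30 libraries were MI replicates 1, 2 and 5 of day 4. At day 7 Mmp12 read 13.8, 14, 13.9, 16.0 and 6.04 CPM in MI and 1.01, 12.6, 0.990, 0.251 and 2.30 CPM in sham libraries and was not past the threshold (log2 1.73 ± 0.74, adjusted p = 0.0719). Sham replicate 2, which held lung transcripts, reached the MI range, and the other 4 sham libraries lay below all MI libraries. Without it the log2 fold change was 3.29 (adjusted p = 5.36e-05), and with all 30 libraries in 1 fit the threshold was passed at 1.74 (adjusted p = 0.00493). Macrophage markers (Cd68, Adgre1, Csf1r, Lyz2 and Fcgr1) were higher in 4 of 5 at day 2 and 5 of 5 at days 4 and 7, with sums of 469.7 to 1056 against 401 to 479.5 CPM, 1385 to 1738 against 358 to 621 CPM and 999.9 to 2166 against 316 to 687 CPM. No macrophage marker was at 0 throughout a group, and their part in the Mmp12 values was not tested.

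Mmp3, the stromelysin that cuts proteoglycans and activates other MMPs, changed less. It read 30.4 ± 3.21, 25.6 ± 7.07 and 18.6 ± 8.54 CPM in MI and 20.4 ± 5.70, 14.1 ± 4.65 and 9.63 ± 3.26 CPM in sham hearts at the 3 days, with overlapping groups (log2 0.48, 0.68 and 0.76, edgeR adjusted p = 0.0179, 0.0290 and 0.0376). These calls were lost without 1 library at day 2 (MI replicate 1), without any of 5 at day 4 (MI replicates 3, 4 and 5, sham replicates 1 and 5) and without any of 6 at day 7 (MI replicates 1 and 3, sham replicates 1, 3, 4 and 5), with log2 values of 0.42, 0.55 to 0.69 and 0.44 to 0.75. Without the libraries with lung transcripts the day 7 estimate was 1.17 (adjusted p = 0.0524).

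Mmp3, Mmp8, Mmp12 and Mmp13 belong to a cluster of 9 Mmp genes within 427072 bases at chr9:7272514-7699585, with Mmp1b, Mmp7, Mmp10, Mmp20 and Mmp27. Promoters of this cluster are known for binding sites of AP-1, a dimer of Fos and Jun proteins, and some are shown because Mmp3, Mmp8, Mmp12 and Mmp13 were all higher at day 2. RefSeq windows (GRCm38.p6) were found for 35 of the 50 members, all 9 of the cluster among them. The letters TGANTCA, which AP-1 binds, were searched on both strands in the 250 bases before each start. RefSeq gives 2 starts for Mmp12, Mmp7 and Mmp23, so that the 9 cluster genes had 11 windows and the 26 other members 27. The letters were found in 7 of the 11 cluster windows and in 0 of the 27 others, where 6.75% of 32851 windows and 7.82% of 27025 genes of the table hold them. The 7 windows belong to 7 genes, all but Mmp8 and Mmp27. In Mmp12 the window of the first start (chr9:7344397) lacks the letters, and the one that holds them lies before a second start 2977 bases farther along, inside the gene. In Mmp7 the window of the first start holds them and that of the second, 251 bases on, does not. Counted at the first start alone, 6 of the 9 cluster genes hold the letters. The letters TATAAA were in 6 of the 11 cluster windows and in 3 of the 27 others, against 7.59% of windows. The motifs do not overlap each other in the windows shown, and a match is a description of the sequence only. The last 150 bases before a RefSeq start follow, 5′ to 3′ on the strand of the gene, with both motifs in capitals. For Mmp12 the second start was chosen because its window holds the motif. They stand at chr9:7347224-7347373, chr9:7445672-7445821 and chr9:7272364-7272513 for 3 genes with the motif, at chr9:7558279-7558428 for the cluster gene with the largest change at day 4, which has none, and at chrX:20870016-20870165 for Timp1, which has none either.
Mmp12: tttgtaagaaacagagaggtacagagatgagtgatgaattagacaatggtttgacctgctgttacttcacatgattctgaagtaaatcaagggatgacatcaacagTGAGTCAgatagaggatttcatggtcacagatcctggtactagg
Mmp3: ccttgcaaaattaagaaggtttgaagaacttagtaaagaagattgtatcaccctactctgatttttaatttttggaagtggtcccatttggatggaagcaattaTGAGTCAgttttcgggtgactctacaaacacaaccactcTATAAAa
Mmp13: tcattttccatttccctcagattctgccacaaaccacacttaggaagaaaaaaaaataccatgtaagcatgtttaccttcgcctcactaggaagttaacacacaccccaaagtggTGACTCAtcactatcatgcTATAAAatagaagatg
Mmp8: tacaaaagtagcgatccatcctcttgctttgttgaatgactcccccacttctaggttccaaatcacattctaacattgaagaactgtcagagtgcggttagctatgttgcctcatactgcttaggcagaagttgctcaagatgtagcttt
Timp1: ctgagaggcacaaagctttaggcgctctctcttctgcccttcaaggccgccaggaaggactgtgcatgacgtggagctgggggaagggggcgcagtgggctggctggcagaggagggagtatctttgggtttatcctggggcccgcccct
The first base of TGANTCA, counted along the gene's strand, stood 44 bases before the second start of Mmp12 and 46 and 35 bases before the starts of Mmp3 and Mmp13. Of the 7 AP-1 subunit genes tested, 2 were higher and 1 lower at day 2, 3 higher at day 4 and 1 higher at day 7. In all, 42.9%, 42.9% and 14.3% of the list were called, and the calls of days 4 and 7 were all higher. Of all genes, 24.1% were higher and 22.2% lower at day 2, 27.5% and 25.2% at day 4, and 28.4% and 26.6% at day 7. With only 7 genes, no conclusion is drawn from these shares. Fosl1 was higher at days 2 and 4 (log2 1.47 and 0.79, edgeR adjusted p = 4.78e-05 and 0.00492) and read -0.03 at day 7 (adjusted p = 0.913). The 1 lower at day 2 was Jun (log2 -0.31), a call lost without any of MI replicates 1, 2 and 5 and sham replicates 3 and 5 (-0.30 to -0.27). Fosl2 was higher at all 3 days (log2 0.80, 1.12 and 1.01) and Junb at day 4 (0.84). Of the 7 cluster genes with the motif, Mmp1b, Mmp7, Mmp10 and Mmp20 were too low to be tested at any day.

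Mmp14 encodes the membrane-type MMP that activates pro-MMP2 together with TIMP2, and it lies at chr14:54431612-54445364. At day 2 it read 64.1, 74.0, 57.8, 59.1 and 40.8 CPM in MI and 29.1, 43.1, 20.9, 27.5 and 20.7 CPM in sham replicates 1 to 5, 1.96-fold higher (edgeR adjusted p = 8.35e-04). A single sham library, replicate 2, reached the MI range. On day 4 the level was 252, 192, 202, 226 and 320.0 CPM in MI and 60.8, 56.6, 83.8, 47.0 and 45.5 CPM in sham libraries, 3.60-fold higher (adjusted p = 9.40e-07). On day 7 the level was 249, 301, 385, 344 and 171 CPM in MI and 47.1, 88.1, 41.5, 33.5 and 39.9 CPM in sham libraries, 5.09-fold higher (adjusted p = 1.67e-05). The groups did not overlap at days 4 and 7, and the sham library with the most Mmp14 at day 7, replicate 2, held lung transcripts.

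Mmp23 (chr4:155650655-155653384), a membrane-anchored MMP without the usual hemopexin domain, was not past the threshold at day 2 (15.6 ± 3.10 against 11.9 ± 2.74 CPM, edgeR adjusted p = 0.139). It was 1.83-fold higher at day 4 (26.7 to 37.8 against 10.6 to 22.8 CPM, adjusted p = 2.70e-04). At day 7 Mmp23 read 68.9, 58.7, 66.2, 67.8 and 45.8 CPM in MI and 12.6, 21.4, 18.7, 10.6 and 9.05 CPM in sham libraries, 3.72-fold higher (adjusted p = 1.05e-05). The MI libraries lay above the sham libraries at days 4 and 7. Mmp15, another membrane-type MMP, went the other way. It read 126 ± 7.36, 119.9 ± 14 and 106 ± 27.3 CPM in MI and 172 ± 15.7, 184 ± 12.1 and 191 ± 9.36 CPM in sham hearts. The groups did not overlap at any day, and Mmp15 was 1.45-fold, 1.73-fold and 2.07-fold lower (adjusted p = 6.57e-05, 7.72e-06 and 5.95e-05). The 5 cardiomyocyte markers were also lower, 3 of 5 at day 2 and 5 of 5 at days 4 and 7, with sums of 25699.9 to 32309.8 against 39436 to 47699 CPM at day 7. Their part in the Mmp15 values was not tested.

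Among the remaining Mmp genes, Mmp19 was higher at all 3 days (log2 0.76, 0.99 and 1.11, edgeR adjusted p = 0.00754, 3.53e-04 and 0.00318). Mmp16 and Mmp17, of the membrane-anchored group, Mmp11, known from stromal cells, and Mmp28 were higher at day 7 (log2 1.47, 0.61, 0.52 and 0.64, adjusted p = 2.64e-04, 0.0189, 0.0317 and 0.00409) and not past the threshold at days 2 and 4, where Mmp16 read -0.04 and 0.65. The difference of day 7 from day 4 was not past the threshold for any of the 4 (interaction adjusted p = 0.408, 0.619, 0.0789 and 0.242). Without the libraries with lung transcripts Mmp11, Mmp17 and Mmp28 no longer passed the threshold (log2 0.64, 0.49 and 0.61), in a comparison of 4 MI with 2 sham libraries. Mmp17 also lost its call without sham day 7 replicate 1 alone (log2 0.53), and Mmp11 without any of 6 libraries (MI replicates 2, 4 and 5, sham replicates 1, 4 and 5; log2 0.42 to 0.51). Mmp7, Mmp10, Mmp1b, Mmp20, Mmp21, Mmp24, Mmp25 and Mmp27 were not tested at any day. Of these, Mmp24 read 0.424 to 1.35, 0.434 to 1.63 and 0.420 to 3.55 CPM in MI and at most 0.232 CPM in sham libraries. The neutrophil-associated Mmp25 read at most 1.64 CPM, and the other 6 at most 0.392 CPM in any library.

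**Figure D3:**
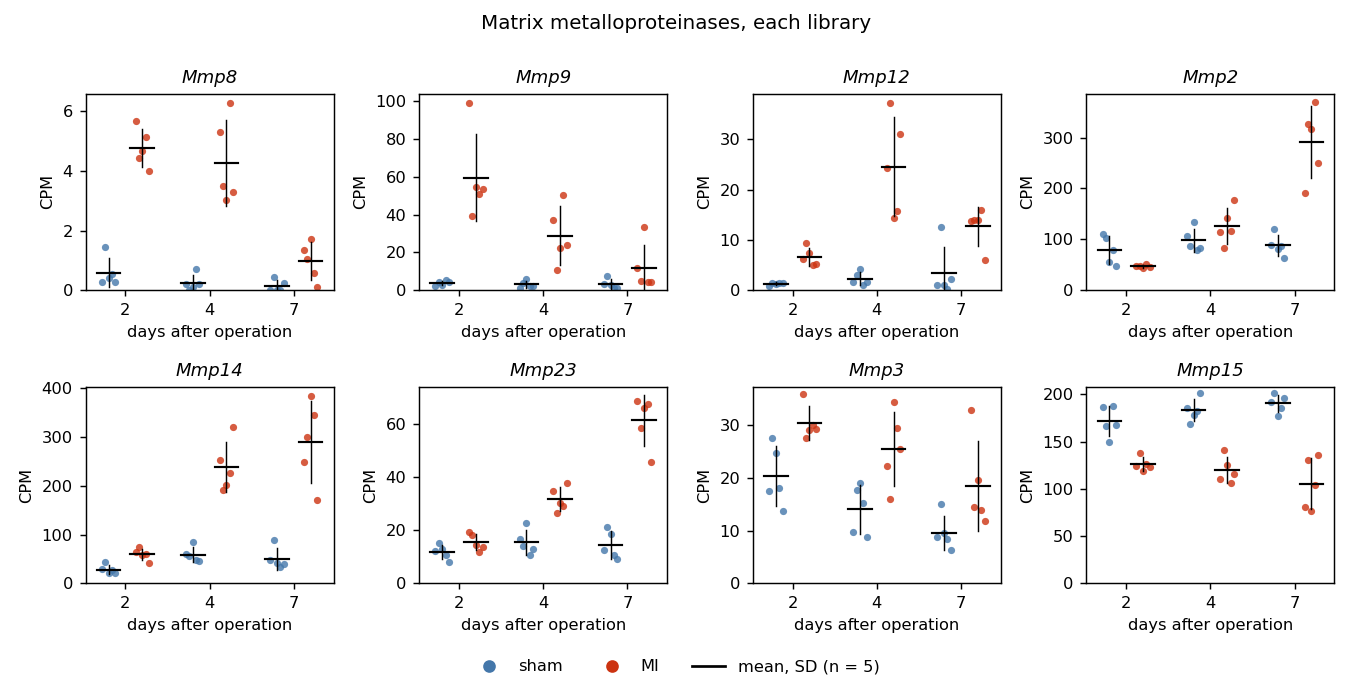
CPM (vertical axis) of 8 Mmp genes in each library, by days after the operation (horizontal axis), with sham in blue and MI in red; black bars are the mean and SD of 5 libraries. Mmp8 and Mmp9 are highest at days 2 and 4, Mmp12 at day 4, and Mmp2, Mmp14 and Mmp23 at day 7, while Mmp15 is lower in MI at each day.

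Adamts1, Adamts4, Adamts5, Adamts8, Adamts9, Adamts15 and Adamts20 encode the branch of the family that cuts the proteoglycans versican and aggrecan. Adamts4 (chr1:171250421-171260637) changed most among them at day 2. It read 25.1, 21.7, 23.3, 40.2 and 18.3 CPM in MI and 4.17, 3.88, 2.39, 2.94 and 2.73 CPM in sham replicates 1 to 5, 7.53-fold higher (edgeR adjusted p = 5.67e-07). At day 4 it was 6.69-fold higher (40.2 to 51.0 against 5.06 to 6.66 CPM, adjusted p = 5.17e-10) and at day 7 4.86-fold higher (27.7 to 36.6 against 3.27 to 9.87 CPM, adjusted p = 3.85e-06). The groups were far apart at each day.

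Adamts1 (chr16:85793827-85803113), an early response gene of inflammation, read 139, 63.5, 111, 201 and 125 CPM in MI and 58.2, 37.3, 35.7, 48.8 and 57.3 CPM in sham replicates 1 to 5 at day 2, 2.55-fold higher (edgeR adjusted p = 0.00193). MI replicate 4 was the highest and replicate 2 was just above the sham range. It was 1.95-fold higher at day 4 (adjusted p = 2.70e-05) and 2.2-fold higher at day 7 (adjusted p = 4.19e-04), with no overlap. Without the libraries with lung or skeletal muscle transcripts, 3 MI against 2 sham, the day 7 difference did not pass the threshold (log2 0.91, adjusted p = 0.0579).

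Adamts5 (chr16:85856173-85901828), the neighbour of Adamts1 on chromosome 16 and an aggrecan-cutting enzyme known from cartilage, followed another course. It was 1.32-fold lower at day 2, with overlapping groups (22.5 to 36.3 against 25.2 to 47.8 CPM, edgeR adjusted p = 0.0469). That call was lost without any of MI replicates 1, 3, 4 and 5 or sham replicates 1, 2 and 4 (log2 -0.43 to -0.24, adjusted p = 0.0522 to 0.134). At day 4 it was not past the threshold (log2 -0.16, adjusted p = 0.330). At day 7 it read 70.9, 64.4, 76.3, 68.3 and 58.9 CPM in MI and 42.0, 46.3, 34.6, 33.9 and 36.1 CPM in sham libraries, 1.54-fold higher with no overlap (adjusted p = 1.79e-04).

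Adamts8 (chr9:30942562-30963838), which is known from lung and heart, was not past the threshold at day 2 (edgeR adjusted p = 0.457), where sham replicate 1 alone read 23.1 CPM and the other 9 libraries 4.87 to 10.2 CPM. At day 4 it read 30.5, 7.43, 55.6, 13.5 and 31.6 CPM in MI and 6.14, 3.22, 7.18, 2.11 and 1.55 CPM in sham libraries, 6.11-fold higher (adjusted p = 0.00626). The MI libraries of day 4 differed widely, and the lowest was just above the sham range. At day 7 Adamts8 was 3.64-fold higher (19.6 to 43.6 against 4.97 to 9.04 CPM, adjusted p = 1.07e-05). Adamts9 was higher at each day (log2 0.68, 0.53 and 0.44, adjusted p = 0.00178, 0.00262 and 0.0296). Its call at day 7 was lost without any of MI replicates 3 and 4 and sham replicates 3 and 5 (log2 0.34 to 0.42), and without the libraries with lung transcripts (log2 0.44, adjusted p = 0.135). Adamts15 passed the threshold at no day (log2 -0.30, 0.20 and 0.46, adjusted p = 0.0994, 0.422 and 0.0744), and Adamts20 was not tested, at 0.431 to 2.35 CPM in MI and 0.251 to 1.01 CPM in sham hearts at day 7.

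Adamts2, Adamts3 and Adamts14 encode the enzymes that remove the amino-terminal propeptide from fibrillar procollagens. Adamts2 (chr11:50602084-50807573) read 83.6, 72.8, 64.2, 59.8 and 51.4 CPM in MI and 80.4, 75.2, 40.5, 53.9 and 38.9 CPM in sham replicates 1 to 5 at day 2, in overlapping groups (edgeR adjusted p = 0.676). At day 4 Adamts2 read 194, 131, 208, 164 and 258 CPM in MI and 93.9, 67.4, 108, 65.7 and 60.2 CPM in sham libraries, 2.15-fold higher (adjusted p = 2.45e-04). At day 7 Adamts2 read 260.0, 334, 380.1, 359 and 268 CPM in MI and 71.7, 99.2, 63.4, 60.7 and 55.0 CPM in sham libraries, 4.01-fold higher (adjusted p = 1.02e-06). The MI libraries were above the sham libraries at days 4 and 7. Adamts14 was higher at days 4 and 7 (log2 0.55 and 1.43, adjusted p = 0.0370 and 3.30e-04), the first lost without any of 6 libraries (MI replicates 3 and 5, sham replicates 1, 2, 4 and 5; log2 0.40 to 0.57). Adamts3 was lower at day 2 (log2 -0.61, adjusted p = 0.00638) and not past the threshold later.

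Adamts7 and Adamts12 encode a pair of related enzymes that cut cartilage oligomeric matrix protein (Comp). Adamts12 (chr15:11064790-11349231) was not past the threshold at day 2 (6.04 ± 1.43 against 4.49 ± 1.40 CPM, edgeR adjusted p = 0.216). At day 4 it read 19.5, 17.5, 22, 15.4 and 35.0 CPM in MI and 4.98, 6.66, 10.6, 4.42 and 5.33 CPM in sham replicates 1 to 5, 3.05-fold higher (adjusted p = 1.46e-04), and at day 7 37.9, 40.1, 62.9, 55.0 and 23.2 CPM against 7.14, 8.75, 7.59, 2.89 and 4.85 CPM, 6.09-fold higher (adjusted p = 1.60e-05). The groups did not overlap at either day, and MI replicate 5 of day 7 was the lowest of its group. Without the libraries with lung transcripts the day 7 log2 fold change was 3.28 in place of 2.61. Adamts7 was 1.62-fold, 1.73-fold and 1.24-fold lower at the 3 days (adjusted p = 5.73e-04, 9.89e-06 and 0.0113), the last not past the threshold without the libraries with lung transcripts (log2 -0.39, adjusted p = 0.0780). Comp itself was 7.57-fold higher at day 7 (adjusted p = 6.36e-09).

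Adamts16 (chr13:70727802-70841811) had the largest log2 fold change of all members, 4.17 ± 0.49 at day 7 (edgeR adjusted p = 1.70e-05). It read 4.66, 8.19, 10.9, 8.16 and 3.67 CPM in MI and 0.0916, 0.673, 0.440, 0 and 0.510 CPM in sham replicates 1 to 5 at that day. Every MI library was well above the sham libraries, which were near the level of 3 counts, so that the fitted ratio rests on few sham counts. Adamts16 passed the filter on low counts at day 7 only through its MI libraries, so that its call and its rank depend on being high there. At day 4 it was too low to be tested, at 1.63, 1.5, 1.60, 0.588 and 2.43 CPM in MI and at most 0.118 CPM in sham libraries. At day 2 all 5 sham libraries had 0 counts and 1 MI library had a single count (0.106 CPM). Of the others, Adamts6 was higher at all 3 days (log2 0.67, 0.60 and 1.23, adjusted p = 0.00423, 0.0499 and 1.16e-04), the second lost without any 1 of 9 libraries (all but sham day 4 replicate 3; log2 0.48 to 0.66). Adamts10, which acts in microfibril assembly, was higher at days 4 and 7 (0.59 and 1.35, adjusted p = 7.03e-04 and 4.31e-06), and Adamts17 at day 7 (1.34, adjusted p = 2.56e-04). Adamts19 was called at no day, Adamts18 read at most 0.336 CPM, and Adamts13, the enzyme that cuts von Willebrand factor, had 0 counts in every library.

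**Figure D4:**
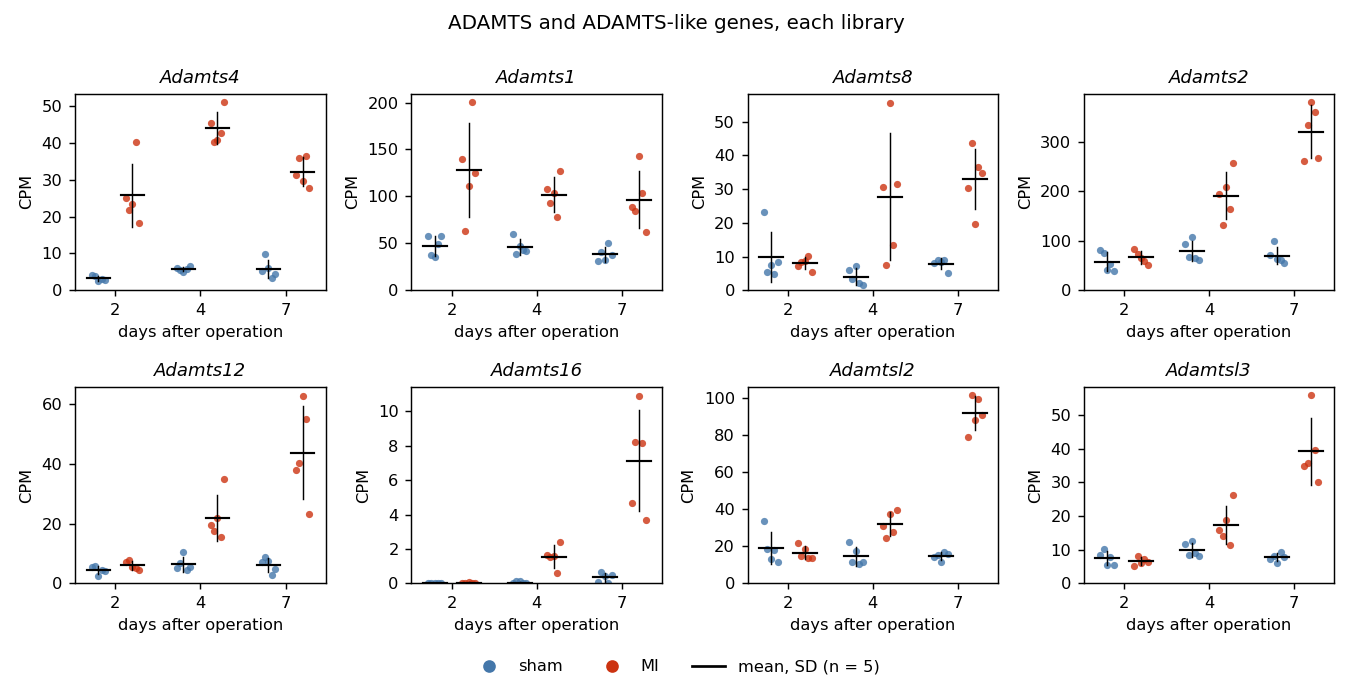
CPM (vertical axis) of 6 Adamts and 2 Adamtsl genes in each library, by days after the operation (horizontal axis), with sham in blue and MI in red; black bars are the mean and SD of 5 libraries. Adamts4 and Adamts1 lie above sham from day 2, and the other 6 have their highest MI mean at day 7.

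Among the ADAMTS-like genes, Adamtsl2 (chr2:27079379-27108981), a microfibril protein known to bind a latent TGF-beta binding protein, read 21.7, 14.7, 18.4, 13.9 and 13.5 CPM in MI and 33.8, 18.4, 13.4, 18.2 and 11.6 CPM in sham replicates 1 to 5 at day 2, not past the threshold (edgeR adjusted p = 0.318). It was 1.94-fold higher at day 4 (24.4 to 39.5 against 10.5 to 22.5 CPM, adjusted p = 0.00130). At day 7 Adamtsl2 read 79.1, 102, 88.4, 99.5 and 90.9 CPM in MI and 14.2, 15.5, 11.5, 17.1 and 15.8 CPM in sham libraries, 5.42-fold higher (adjusted p = 1.68e-08). The day 7 groups were tight and far apart. Adamtsl3 (chr7:82335694-82614450) read 6.58 ± 1.18 and 7.50 ± 2.08 CPM at day 2, 1.53-fold higher at day 4 with overlapping groups (adjusted p = 0.0162) and 4.44-fold higher at day 7 (30.1 to 55.9 against 6.16 to 9.42 CPM, adjusted p = 1.43e-06).

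Adamtsl1 (chr4:85514172-86428385) was 1.98-fold lower at day 2, at 2.37, 1.40, 2.02, 1.85 and 2.05 CPM in MI and 4.17, 3.73, 2.82, 3.86 and 3.26 CPM in sham replicates 1 to 5 (edgeR adjusted p = 6.91e-04). At day 7 it was 1.67-fold higher, at 6.02, 10.6, 7.51, 9.67 and 6.58 CPM against 4.49, 4.60, 3.41, 4.65 and 3.95 CPM (adjusted p = 0.00371). Neither pair of groups overlapped, in opposite directions. The day 7 call was lost without the libraries with lung transcripts (log2 0.54, adjusted p = 0.141). Adamtsl5 was higher at days 2 and 4 (log2 0.45 and 0.26, adjusted p = 0.00152 and 0.0151) and read -0.13 at day 7 (adjusted p = 0.217), and Adamtsl4 was lower at day 4 (-0.53, adjusted p = 3.83e-04). The day 4 call of Adamtsl5 was lost without the libraries with lung transcripts (log2 0.21).

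The change of the MI effect between days was tested as an interaction in 1 edgeR fit of all 30 libraries, with 41 members tested. From day 2 to day 4 the log2 fold change of 6 members became larger and of 0 smaller, against 2.51% and 2.29% of all genes. The 6 were Adamts2, Adamts8, Adamts10, Adamtsl2, Mmp2 and Timp2. At an unadjusted p under 0.05, 11 were larger and 1 smaller, against 11.2% and 9.25% of all genes, and DESeq2 called 8 larger and 0 smaller, against 3.57% and 4.6%. From day 4 to day 7, 8 became larger and 0 smaller, against 0.702% and 0.315% of all genes: Timp2, Timp3, Mmp2, Mmp23, Adamts5, Adamts10, Adamtsl2 and Adamtsl3. At an unadjusted p under 0.05, 18 were larger and 1 smaller, against 7.57% and 6.56% of all genes, and DESeq2 called 10 and 0, against 1.62% and 1.37%. From day 2 to day 7, 20 became larger and 2 smaller (Mmp15 and Adamtsl5), against 10.1% and 9.11%.

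Among the largest differences of day 7 against day 2 were those of Adamtsl2 (log2 2.78 ± 0.30, edgeR adjusted p = 3.60e-07), Adamtsl3 (2.45 ± 0.29, adjusted p = 8.66e-07), Mmp2 (2.39 ± 0.29, adjusted p = 2.39e-06) and Adamts12 (2.31 ± 0.41, adjusted p = 2.79e-04). The 4 genes that were lower at day 2 and higher at day 7 all passed this test, with 1.40 for Timp2, 1.04 for Adamts5 and 1.75 for Adamtsl1. These 4 had been picked by their calls in the same libraries, so that passing was largely fixed by the choice and adds no support. Some members called higher at day 2 did not pass the test of day 7 against day 2. The difference was 0.28 ± 0.31 for Timp1 (edgeR adjusted p = 0.573), -0.61 ± 0.29 for Adamts4 (0.139), -0.19 ± 0.34 for Adamts1 (0.743), -2.12 ± 0.81 for Mmp9 (0.0673) and -0.50 ± 0.77 for Mmp12 (0.693). The Mmp9 difference passed it without MI day 7 replicate 3 (log2 -3.06, adjusted p = 0.00319) and with DESeq2 (-2.16, adjusted p = 0.0260).

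Many of the calls between neighbouring days were lost when libraries were left out, while the estimates kept their direction. Without the 6 libraries with lung transcripts 1 of the 8 members, Mmp23, passed the test of day 7 against day 4 (log2 1.41 in place of 1.04, edgeR adjusted p = 0.0483). The estimate was 1.41 in place of 1.35 for Mmp2, 0.71 in place of 0.71 for Timp2, 0.98 in place of 0.94 for Timp3, 1.32 in place of 1.5 for Adamtsl2, 1.37 in place of 1.55 for Adamtsl3, 0.85 in place of 0.80 for Adamts5 and 1.03 in place of 0.78 for Adamts10. Among the 20 libraries of days 4 and 7, leaving out any 1 of these also lost the call of day 7 against day 4: all but MI replicate 5 and sham replicates 4 and 5 of day 4 and MI replicates 1 and 5 and sham replicate 2 of day 7 for Timp2 (log2 0.60 to 0.73), all but MI replicate 5 and sham replicates 4 and 5 of day 4 and MI replicate 5 and sham replicates 2 and 3 of day 7 for Mmp23 (0.90 to 1.07), all but MI replicates 3 and 5 and sham replicate 5 of day 4 and MI replicate 5 and sham replicate 2 of day 7 for Adamts5 (0.71 to 0.84), and all but MI replicates 1 and 5 and sham replicates 2 and 4 of day 4 and MI replicate 5 and sham replicates 2 and 3 of day 7 for Adamts10 (0.71 to 0.82).

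The calls of day 4 against day 2 were lost for Mmp2 (log2 0.88 to 1.07) without any 1 of 13 libraries, all of the 20 of these days but MI replicate 2 and sham replicates 3 and 5 of day 2 and MI replicates 2 and 4 and sham replicates 1 and 3 of day 4, and without the libraries with lung transcripts. Those of Adamts2 were lost (0.84 to 0.99) without any 1 of 11, MI replicates 3, 4 and 5 and sham replicates 1 and 2 of day 2 and MI replicates 1, 3 and 5 and sham replicates 2, 4 and 5 of day 4. Those of Adamts10 were lost (0.64 to 0.71) without MI replicate 4 or sham replicates 1 or 2 of day 2 or MI replicate 1 or sham replicates 2 or 4 of day 4, and those of Timp2 (0.59 to 0.62) without MI replicate 4 or sham replicates 1 or 2 of day 2 or MI replicate 5 or sham replicate 4 of day 4. The call of a lower log2 fold change of Mmp15 at day 7 than at day 2 was lost without MI replicates 1 or 3 of day 7 or sham replicate 2 of day 2 (log2 -0.48 to -0.41, edgeR adjusted p = 0.0525 to 0.0581).

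Among the 37 members tested at all days, the log2 fold change was largest at day 7 in 25, at day 2 in 9 and at day 4 in 3, and the MI mean was highest at day 7 in 24, at day 2 in 7 and at day 4 in 6. These counts were not made over all genes, so that they cannot be set against a share of all genes. The levels of different genes were compared as CPM per kb of exon. In sham hearts at day 7 the highest members were Timp2 at 56.7 ± 9.14, Mmp15 at 35.3 ± 1.73, Mmp2 at 26.1 ± 6.18 and Adamtsl5 at 22.5 ± 1.32 CPM per kb (SD, n = 5), of which the last pair lay within their spread. In MI hearts at day 7 they were Timp2 at 122 ± 14.1, Timp1 at 112 ± 29.8, Mmp2 at 86.3 ± 20.8 and Mmp14 at 48.6 ± 14 CPM per kb, with Timp2, Timp1 and Mmp2 each within the spread of its neighbour.

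Summed over each family in CPM per kb, the Timp genes stood at 254 ± 45.6 in MI and 102 ± 15.1 in sham hearts at day 2, 298 ± 30.5 and 103 ± 20.5 at day 4, and 275 ± 39.3 and 91.7 ± 17.1 at day 7. The groups did not overlap at any day. The Mmp sum overlapped at day 2 (90.9 to 118 against 67.9 to 101) and lay higher in MI at day 4 (124 to 185 against 86.7 to 121) and day 7 (168 to 244 against 75.7 to 120.0). The Timp sum over the Mmp sum was 2.54 ± 0.256 in MI and 1.2 ± 0.0844 in sham hearts at day 2, 1.96 ± 0.228 and 1.06 ± 0.0748 at day 4, and 1.32 ± 0.231 and 1.02 ± 0.0218 at day 7. This ratio of transcript sums was above that of every sham library of the same day in all MI libraries, and its MI mean was lower at each later day. These results hold for sums in CPM per kb. In CPM not divided by exon length, the Timp sums overlapped at day 2 (459.6 to 578 against 342 to 469.4) and day 4 (534 to 762 against 329 to 553). The ratios then overlapped as well. At day 4 the Timp and Mmp sums were 534 and 549 CPM in MI replicate 2 and 444 and 412 CPM in sham replicate 1. At day 7 they were 897 and 912 CPM in MI replicate 2 and 418 and 378 CPM in sham replicate 1. The MI mean of the ratio in CPM was also not lower at day 7 than at day 4. The ratio compares RNA only, not enzyme with inhibitor.

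The make-up of both sums differed by day. Timp1 made up 75.5 ± 3.29% of the Timp sum in MI and 29.4 ± 2.97% in sham hearts at day 2, and 40.2 ± 5.98% and 14.5 ± 5.09% at day 7. Mmp2 made up 14.1 ± 1.36% of the Mmp sum in MI and 26.8 ± 5.44% in sham hearts at day 2, and 40.6 ± 5.45% and 28.8 ± 2.55% at day 7. Mmp14 went from 9.97 ± 1.81% at day 2 to 25.9 ± 2.63% at day 4 and 22.7 ± 3.61% at day 7 in MI hearts.

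**Figure D5:**
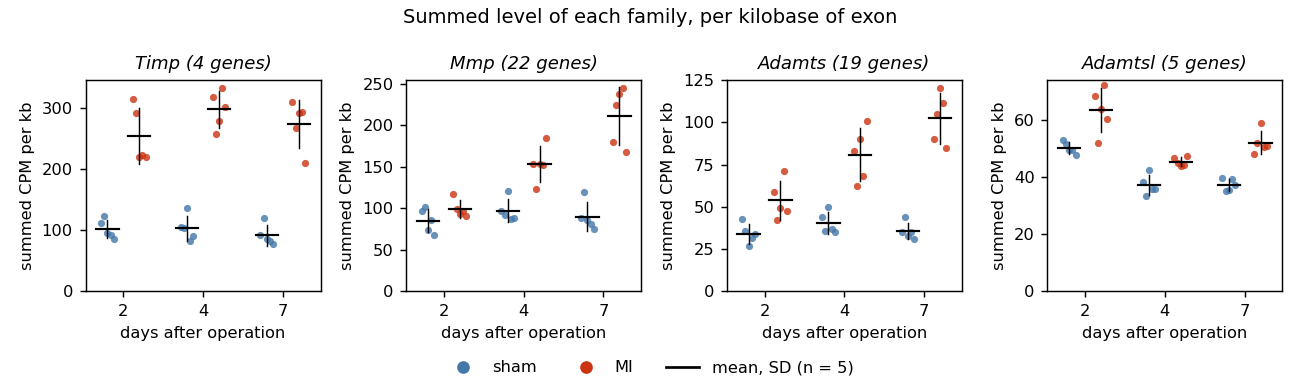
Level of each family summed over its genes in CPM per kb of exon (vertical axis, from 0) in each library, by days after the operation (horizontal axis), with sham in blue and MI in red; black bars are the mean and SD of 5 libraries. The Timp sum separates MI from sham at each day, and the Mmp, Adamts and Adamtsl sums at days 4 and 7.

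Genes that act with these families were taken as lists. Of 17 tested genes of MMP activation and control at the cell surface, 9 were higher and 3 lower at day 2, 10 and 2 at day 4, and 12 and 1 at day 7 (edgeR). For these lists the shares of all genes were those given above, 24.1% higher and 22.2% lower at day 2, 27.5% and 25.2% at day 4, and 28.4% and 26.6% at day 7. The urokinase gene Plau was higher at each day (log2 1.62, 1.66 and 1.39, adjusted p = 1.24e-04, 8.13e-07 and 9.79e-05), as were its receptor Plaur (2.58, 2.23 and 1.66) and the integrin subunit Itgb3 (2.14, 1.72 and 1.69). Furin, the convertase that activates membrane-type MMPs, was higher at days 2 and 4 (log2 0.21 and 0.38) and read 0.08 at day 7 (adjusted p = 0.552). Its day 2 call was lost without any 1 of 4 libraries, MI replicates 1 and 3 and sham replicates 3 and 5 (log2 0.19 to 0.20).

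Reck, a membrane-anchored MMP inhibitor, was lower at day 2 (log2 -0.45, edgeR adjusted p = 0.0381), read -0.37 at day 4 (adjusted p = 0.0644) and was higher at day 7 (0.58, adjusted p = 0.00300). The first call was lost without any 1 of 6 libraries, MI replicates 1, 3 and 5 and sham replicates 1, 2 and 4 (log2 -0.46 to -0.31), and the last without the libraries with lung transcripts (log2 0.60). Lrp1, an endocytic receptor for MMPs and TIMPs, was higher at day 7 (1.78, adjusted p = 2.41e-05) and not past the threshold before (log2 -0.13 and 0.83). Of 10 ADAM sheddases tested, 5, 7 and 6 were higher at the 3 days and 0 lower, with Adam8, known from myeloid cells, at 2.99, 4.37 and 3.32, Adam12 at 1.90, 2.27 and 2.82, and Adam9 at 0.87, 0.95 and 0.94. By DESeq2 the number lower was also 0 at each day, against 22.9%, 26.5% and 27.4% of all genes. Without the libraries with lung transcripts Adam12 read 2.90 at day 4, and without those with lung or skeletal muscle transcripts Adam8 read 3.95 at day 7.

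Of 9 tested genes of procollagen and its processing, 1, 8 and 9 were higher at days 2, 4 and 7. They included the collagens Col1a1 (0.16, 1.65 and 2.71), Col1a2 (2.56 at day 7) and Col5a1 (2.57 at day 7). Bmp1, the enzyme that removes the carboxy-terminal propeptide, was at 0.43, 1.02 and 1.64. Its day 2 call was lost without any 1 of 4 libraries, MI replicate 1 and sham replicates 3, 4 and 5 (log2 0.34 to 0.40). Of the substrates tested, 3 were higher and 2 lower of 11 at day 2, 5 and 2 of 11 at day 4, and 11 and 0 of 12 at day 7. Versican (Vcan) was higher at each day (log2 0.72, 1.16 and 2.04). Aggrecan (Acan) was tested at day 7 only (9.88 ± 4.57 against 0.498 ± 0.575 CPM, log2 3.97, adjusted p = 7.16e-05; 4.96 without sham replicate 1 and 5.83 without the libraries with lung transcripts), and fibronectin (Fn1) was at 1.05, 1.95 and 3.02. All 7 cysteine cathepsins, lysosomal proteases that can also act outside the cell, were higher at days 4 and 7 and 3 of 7 at day 2, with Ctss at 1.22, 2.15 and 2.61.

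Several members share exonic bases with another gene, and the sources used here give no strand setting for the counting, so that reads of such a pair may not have been told apart. Mmp19 shares 22.3% of its exonic bases with Tmem198b, Timp3 21.3% with Syn3, Mmp24 13.6% with BC029722 and Mmp28 12% with 1700020L24Rik, all on opposite strands. Syn3 had under 1% of the counts of Timp3. BC029722 had 43.6 times the counts of Mmp24, and Chchd10 had 90.6 times those of Mmp11, with which it shares 155 bases. Chchd10 was lower in MI at each day (log2 -0.39, -0.71 and -1.04), while Mmp11 was higher at day 7.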

How the data were processed

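Total RNA of mouse hearts was made into 30 directional libraries and sequenced, per the labels' protocols. The authors deposited whole-number read counts per gene; bcl2fastq 2.20.0, featureCounts (no version) and GRCm38 stand in the submitters' processing notes, and neither aligner nor strand setting is given in the sources used here. GENCODE M21 named 97.3% of the gene IDs, which held 99.9% of the counts.

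Counts were tested with edgeR 4.0.16 (quasi-likelihood, robust, TMM, filterByExpr with a minimum count of 10 and total of 15, two-sided) in R 4.3.3, MI against sham within each day, and as interactions between days in 1 fit of 30 libraries. P-values were adjusted over all genes tested (Benjamini-Hochberg), with 0.05 as threshold, and the code was tested on simulated data. CPM values were scaled to the library total, without TMM. Alternatives included DESeq2 1.42.0. A precision limit of 3 counts covers counting error only.

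The members, lists and tests were chosen with earlier results of these data known. Described library by library were Timp1 to Timp4, Mmp2, Mmp9, Mmp14, Adamts1, Adamts2, Adamts4 and Adamts5, plus the members with the largest called change of each family (5 for Mmp and Adamts, 3 for Adamtsl, mean of at least 1 CPM). Values beyond this rule (Mmp3, Mmp13, Mmp15, Mmp24, Adamts7 and the single-library changes of calls) were chosen after they were seen. Mmp1a, annotated as a polymorphic pseudogene, was left out. Promoter windows and coordinates of promoters came from RefSeq (GRCm38.p6). Values of some partner genes are not reported here.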

Additional observations from a re-analysis of the deposited data

Results flagged for a closer look

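In 13 of the 119 groups of 5 libraries examined (20 genes, leaving out 1 group that was at 0 throughout), the highest or the lowest library lay farther from the next one than Dixon's 95% limit allows for the range of the group; chance marks about 1 in 20 groups so. Sham day 7 replicate 2, which held lung transcripts, was the highest of its group for Timp1 (23.9 CPM, next 11.6), Mmp14 (88.1, next 47.1) and Mmp12 (12.6, next 2.30). Sham day 4 replicate 3, also with lung transcripts, was the highest for Adamts5 (56.2 CPM, next 43.6) and Adamtsl1 (11.5, next 5.05). MI day 2 replicate 1 was the highest for Mmp9 (99.2 CPM, next 54.4) and MI day 7 replicate 3 was the highest for the same gene at day 7 (33.3, next 11.8). Sham day 2 replicate 1 was the highest for Adamts8 (23.1 CPM, next 8.37) and the lowest for Mmp12 (0.799, next 1.28). Mmp8 was highest in sham day 2 replicate 2 (1.45 CPM, next 0.541), Mmp12 was lowest in MI day 7 replicate 5 (6.04, next 13.8) and Adamts8 was lowest in sham day 7 replicate 5 (4.97, next 8.15). Adamts16 had its only count at day 2 in MI replicate 3 (0.106 CPM, the others at 0).

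The MI effect of 12 of these genes differed between days by the edgeR interaction test, 24 differences in all, each a larger log2 fold change at the later day. For day 4 against day 2 they were 0.68 for Timp2 (adjusted p = 0.0229), 1.04 for Mmp2 (0.0340), 1.0 for Adamts2 (0.0307), 3.0 for Adamts8 (0.00856; 2.41 without sham day 2 replicate 1) and 1.28 for Adamtsl2 (0.0130). For day 7 against day 4 they were 0.71 for Timp2 (adjusted p = 0.0440), 0.94 for Timp3 (0.00940), 1.35 for Mmp2 (0.0164), 1.04 for Mmp23 (0.0474), 0.80 for Adamts5 (0.0444), 1.5 for Adamtsl2 (0.0109) and 1.55 for Adamtsl3 (0.00313). For day 7 against day 2 they were 1.40 for Timp2 (adjusted p = 3.24e-06), 1.01 for Timp3 (3.80e-04), 2.39 for Mmp2 (2.39e-06), 1.41 for Mmp14 (0.00369), 1.63 for Mmp23 (1.10e-04), 1.92 for Adamts2 (2.26e-05), 1.04 for Adamts5 (6.16e-04), 2.27 for Adamts8 (0.0120, and 0.0814 without the libraries with lung transcripts), 2.31 for Adamts12 (2.79e-04; 3.0 without the libraries with lung transcripts), 2.78 for Adamtsl2 (3.60e-07), 2.45 for Adamtsl3 (8.66e-07) and 1.75 for Adamtsl1 (0.00124). Day 2 and the run name cannot be told apart in the first and last of these comparisons. Of all genes, 2.51% were larger and 2.29% smaller for day 4 against day 2. These shares were 0.702% and 0.315% for day 7 against day 4, and 10.1% and 9.11% for day 7 against day 2. Some genes were picked for a large called change in the same libraries, so that the count cannot be set against these shares. Timp2, Mmp2 and Adamts2 (day 4 against day 2) and Timp2, Mmp23 and Adamts5 (day 7 against day 4) lost their calls without single libraries.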

How the results depend on the processing

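The counts of members higher and lower at each day stayed within 1.5 times those reported under median-ratio size factors, DESeq2, no filter on low counts, a mean of at least 1 CPM, all 30 libraries in 1 fit and the replicate block. The exceptions came from leaving out libraries: without those with lung transcripts, and without those with lung or skeletal muscle transcripts (the latter chosen after seeing the data), 1 member in place of 2 was lower at day 7, and in the latter case 2208 of all genes in place of 3857. Fewer libraries were compared there. Leaving out 1 library at a time gave 11 to 13, 17 to 24 and 24 to 30 members higher and 6 to 8, 4 to 6 and 2 to 3 lower at days 2, 4 and 7. For the change of the MI effect it gave 2 to 9 members larger for day 4 against day 2 (all genes 189 to 600 larger, 209 to 637 smaller), 4 to 10 for day 7 against day 4 (54 to 206 and 14 to 114), and 18 to 21 larger and 1 to 2 smaller for day 7 against day 2. For day 4 against day 2, DESeq2 called 686 of all genes smaller in place of 356, and without a filter 246 were larger in place of 390 and 229 smaller. For day 7 against day 4, 8 members, 109 of all genes larger and 49 smaller became 227 and 192 of all genes with DESeq2, 3 members, 53 and 31 without a filter, 5 members, 61 and 28 with only the 20 libraries of these days, and 1 member, 16 and 2 without the libraries with lung transcripts. The cause was not tested.

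The labels do not say that the replicate numbers pair the samples. The deviations of same-numbered MI and sham libraries correlated at -0.03 to 0.21, -0.19 to 0.24 and -0.22 to 0.17 at days 2, 4 and 7. Of the 5 pairs, 3, 1 and 1 correlated at over 0.1, and 2, 1 and 1 of 5 MI libraries correlated best with their own number. With 5 pairs a day these values cannot decide whether samples were paired. With the replicate block, 12 members were higher and 8 lower at day 2, 20 and 5 at day 4, and 28 and 3 at day 7, and 28 in place of 49 of all genes were smaller for day 7 against day 4. The block ended the calls of Mmp13 at day 2 (adjusted p = 0.0750) and Adamts9 and Tll1 at day 7 (0.0697 for Adamts9), and those of Mmp9, Mmp12 and Timp4 at day 7 passed the threshold with it (log2 1.46, 2.31 and -0.59, adjusted p = 0.0445, 0.0338 and 0.0467). The Adamts2 difference of day 7 against day 4 passed it too (adjusted p = 0.0431). It also turned the Mmp12 difference of day 7 against day 2 to 0.0072.

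Estimates that changed sign were mostly small and not past the threshold. Leaving out 1 library gave -0.33 to 0.12 for Timp4, -0.55 to 0.20 for Adamts8 and -0.0073 to 0.25 for Adamts2 at day 2, and -0.14 to 0.055 for Timp3 and -0.32 to 0.25 for Adamtsl1 at day 4. For day 4 against day 2 it gave -0.046 to 0.15 for Timp3 and -0.28 to 0.062 for Adamts4, for day 7 against day 4 -0.27 to 0.25 for Timp1 and -1.78 to 0.066 for Mmp12, and for day 7 against day 2 -0.40 to 0.045 for Adamts1, -0.93 to 0.81 for Mmp8 and -0.78 to 1.05 for Mmp12. Without the libraries with lung transcripts Adamtsl1 read 0.38 at day 4, the differences of day 7 against day 4 were 0.081 for Timp1 and 0.19 for Adamts4, and that of Mmp12 for day 7 against day 2 was 0.83. Timp4 read 0.062 at day 7 without the libraries with lung or skeletal muscle transcripts. The cause was not tested. Among the listed partner genes, single libraries ended the calls of Adam10 and Col4a1 at day 2 (3 libraries each), Fbln1 and Serpine2 at day 4 (1 each) and Tll1 at day 7 (6). Leaving out the libraries with lung transcripts, or those with lung or skeletal muscle transcripts, also ended the calls of Adam10, Adam17, Pcolce2, Pcsk5 and Vwf at day 7 and Fbln1 at day 4. With no filter on low counts the calls of Mmp3 at days 4 and 7, Adamts5, Furin and Vcan at day 2 were lost, and so were the differences of day 7 against day 4 of Timp2, Mmp2, Mmp23, Adamts5 and Adamts10 and those of day 4 against day 2 of Mmp2 and Adamts2. With all 30 libraries in 1 fit the calls of Mmp3, Jun, Furin and Itgav at day 2 and Adamts14 at day 4 were lost, and that of Adamts6 at day 4 with median-ratio size factors or a mean of at least 1 CPM. With 7841930 to 14070017 counts a library, 11 members were too low to be tested at any day.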
